A study of Mus musculus with 6 samples.

Results

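Oxidative phosphorylation is carried out by 5 enzyme complexes of the inner mitochondrial membrane, and most of their protein subunits are encoded in the nucleus. These nuclear genes were taken from the deposited gene count table as the protein-coding genes whose symbols name a subunit of complex I (Nduf), complex II (Sdh), complex III (Uqcr), complex IV (Cox4 to Cox8) or complex V (Atp5). The rule found 88 of 56748 genes in the table, of which 39 belonged to complex I, 4 to complex II, 8 to complex III, 19 to complex IV and 18 to complex V. It uses names alone and no measured value. The table holds older symbols for some members, so Atp5g1, Atp5g2 and Atp5g3 are the genes now called Atp5mc1, Atp5mc2 and Atp5mc3.

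The 6 libraries were bulk RNA-seq of aortas from mice labelled as deficient in apolipoprotein E (Apoe -/-). All mice were 6 months old and were given angiotensin II from an osmotic minipump for 28 days. The WT group held 3 wild-type littermates, and the sST2-KO group held 3 littermates that lacked sST2, the soluble form of the interleukin-33 receptor ST2, which is encoded by Il1rl1. No group without angiotensin II or with intact Apoe was analysed here. The promoter or cell type of the deletion, the sex of the mice and the segment of aorta were not given in the sources used here.

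Complex I takes electrons from NADH and complex II from succinate, complex III passes them from ubiquinol to cytochrome c, and complex IV hands them to oxygen. Complexes I, III and IV pump protons, and complex V, the ATP synthase, uses the returning protons to make ATP. The core of complexes I, III, IV and V includes subunits encoded by mitochondrial DNA, so each of these enzymes needs transcripts of both genomes, whereas complex II is wholly nuclear. Several complex IV subunits exist in a general form and in a form restricted to tissues such as heart, skeletal muscle or brown fat. Smooth muscle cells of the aortic wall hold few mitochondria compared with heart or brown fat.

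Promoters of 5 members are shown first, since most members varied together and a few did not. They are RefSeq promoter windows of build GRCm38.p6, from 250 bases before to 50 bases after the annotated start, on the strand of the gene. The restricted forms Cox7a1 (chr7:30183921-30184220, plus strand) and Cox8b (chr7:140900397-140900696, minus strand) are set beside the general forms Cox7a2 (chr9:79759804-79760103, minus strand) and Cox8a (chr19:7217567-7217866, minus strand), since in these pairs the restricted form varied far more between libraries than the general form. Uqcrc1 (chr9:108936398-108936697, plus strand) is the member with the lowest p. Capitals mark matches to GCGCANGCG (NRF1), CCGGAAG (ETS factors such as GABP) or GGGCGG (SP1) on either strand.
Cox7a1: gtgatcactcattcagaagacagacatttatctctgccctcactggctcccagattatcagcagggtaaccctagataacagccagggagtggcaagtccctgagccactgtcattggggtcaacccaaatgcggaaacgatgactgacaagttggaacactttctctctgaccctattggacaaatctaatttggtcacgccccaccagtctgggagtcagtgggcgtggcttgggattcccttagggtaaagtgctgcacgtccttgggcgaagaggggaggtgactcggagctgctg
Cox7a2: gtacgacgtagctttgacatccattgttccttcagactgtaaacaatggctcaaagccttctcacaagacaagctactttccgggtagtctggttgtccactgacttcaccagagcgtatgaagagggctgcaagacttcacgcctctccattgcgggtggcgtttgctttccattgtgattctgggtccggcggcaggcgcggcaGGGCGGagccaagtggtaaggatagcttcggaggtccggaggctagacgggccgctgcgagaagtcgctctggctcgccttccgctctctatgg
Cox8b: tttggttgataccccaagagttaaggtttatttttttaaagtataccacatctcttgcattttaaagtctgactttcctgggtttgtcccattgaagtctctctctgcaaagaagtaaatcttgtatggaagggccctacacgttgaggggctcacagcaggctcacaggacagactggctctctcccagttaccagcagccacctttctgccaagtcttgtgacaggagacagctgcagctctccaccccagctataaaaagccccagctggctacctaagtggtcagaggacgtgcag
Cox8a: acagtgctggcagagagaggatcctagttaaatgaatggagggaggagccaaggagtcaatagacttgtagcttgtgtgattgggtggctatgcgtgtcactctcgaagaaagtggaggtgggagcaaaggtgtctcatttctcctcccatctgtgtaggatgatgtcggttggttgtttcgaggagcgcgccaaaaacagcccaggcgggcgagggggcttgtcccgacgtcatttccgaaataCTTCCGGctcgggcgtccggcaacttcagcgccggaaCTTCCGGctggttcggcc
Uqcrc1: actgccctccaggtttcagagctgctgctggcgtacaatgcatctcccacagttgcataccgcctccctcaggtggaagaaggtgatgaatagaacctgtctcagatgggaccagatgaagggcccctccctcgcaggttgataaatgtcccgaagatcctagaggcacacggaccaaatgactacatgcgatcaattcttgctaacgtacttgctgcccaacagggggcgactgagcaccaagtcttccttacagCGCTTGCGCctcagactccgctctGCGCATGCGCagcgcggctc

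Uqcrc1 held 3 matches to the NRF1 letters in 2 stretches of capitals, Cox8a held 2 to the ETS letters and Cox7a2 held 1 to the SP1 letters. The windows of Cox7a1 and Cox8b held no match to any of the 5 motifs searched, and they held 7 and 2 CpG dinucleotides against 20 in Cox7a2 and 19 in Cox8a. Among the subunit genes 68 had windows, 73 in all, and 53 of the 73 held a match to at least 1 motif. Lack of a match was thus not particular to the restricted forms. Cox7b and Cox7c, which varied closely with the other members, had none either, and Cox7b held 5 CpG dinucleotides. NRF1, a factor known to bind promoters of many respiratory genes, had its letters in 28.8% of the subunit windows, 11.9% of windows of tested protein-coding genes and 6.25% of all windows. AAGATGGCG, the letters searched for YY1, stood in 9.59% of the subunit windows, 2.63% of windows of tested protein-coding genes and 1.4% of all windows. AAGGTCA, the letters searched for the oestrogen-related receptor ESRRA, stood in 11.0% of the subunit windows, 3.19% of windows of tested protein-coding genes and 4.72% of all windows. The ETS letters stood in 23.3% of the subunit windows, 15.7% of windows of tested protein-coding genes and 8.86% of all windows. The SP1 letters were the exception, in 38.4% of the subunit windows, 59.9% of windows of tested protein-coding genes and 35.7% of all windows. Both strands were searched, windows of 1 gene can overlap, and a match is a string of letters and not a measured site.

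Each library held from 15615658 to 17988552 counts. Levels are given as CPM, the counts per 1000000 counts, scaled by the trimmed mean of M-values, in the order of replicates 1, 2 and 3 of each group. Il1rl1 stood at 2.81, 9.49 and 4.35 CPM in WT and 2.39, 2.82 and 4.86 CPM in sST2-KO, so the groups overlapped, and gene-level counts do not separate its soluble from its membrane-bound form. Apoe, labelled as lacking in all mice, was at 15.1 and 11.6 CPM in WT replicates 1 and 2, at 507 CPM in WT replicate 3, and at 172, 86.7 and 145 CPM in the sST2-KO mice. All 3 sST2-KO libraries thus lay above WT replicates 1 and 2, and without WT replicate 3 the log2 change of Apoe was 3.34. Gene-level counts do not show which allele the reads came from, and the part of Apoe in the results was not tested. The tissue label was checked with smooth muscle genes, which were abundant in each library (Acta2 at 1644, 5479 and 2411 CPM in WT and 2889.5, 2933 and 6588 CPM in sST2-KO). Libraries differed in genes of other tissues. Hepatocyte markers summed to 9591 CPM in WT replicate 3 but stayed at or under 15.4 CPM in the other libraries. Airway epithelium markers summed to 38173 CPM in sST2-KO replicate 2 but stayed at or under 44.0 CPM in the others. The 13 mitochondrially encoded subunits took 18, 37.1 and 18.9% of the WT libraries' total and 23.2, 6.92 and 19.9% of the sST2-KO libraries' total, so WT replicate 2 and sST2-KO replicate 2 stood apart.

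Most subunit genes had a higher mean in sST2-KO than in WT, but none passed the test and the groups overlapped for each of them. Of the 88 members, 84 passed the filter on low counts (38 of complex I, 4 of complex II, 8 of complex III, 17 of complex IV and 17 of complex V). Ndufb11b, Cox7b2, Cox8c and a second identifier named Atp5o had 0 counts in all 6 libraries, which allows up to 0.167 to 0.192 CPM in a library (3 counts, counting error only). The log2 change, sST2-KO minus WT, lay above 0 for 80 of 84 members (95.2%), while it lay above 0 for 53.5% of all 16377 genes tested. Its median was 0.64 (quartiles 0.49 and 0.79) over the members and 0.042 over all genes tested.

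By edgeR's quasi-likelihood test with Benjamini-Hochberg adjustment, 0 of 84 members were called higher and 0 lower at 0.05, against 0.0% of all genes higher and 0.0% lower. DESeq2 also called 0 members, against 0.383% of 15149 genes higher and 1.47% lower. At an unadjusted edgeR p under 0.05, 1 member was higher and 0 lower, against 5.08% of all genes higher and 5.95% lower. The 3 sST2-KO libraries lay wholly above the 3 WT libraries for 0 members and wholly below for 0, against 9.09% and 10% of all genes. The members' adjusted p ran from 0.453 to 0.936 by edgeR, and the lowest by DESeq2 was 0.276. The standard error of the log2 change had a median of 0.44. Libraries of the same group differed by more than counting noise over all genes, with a median squared difference from 6.37 to 50.8 times that noise.

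**Figure D1:**
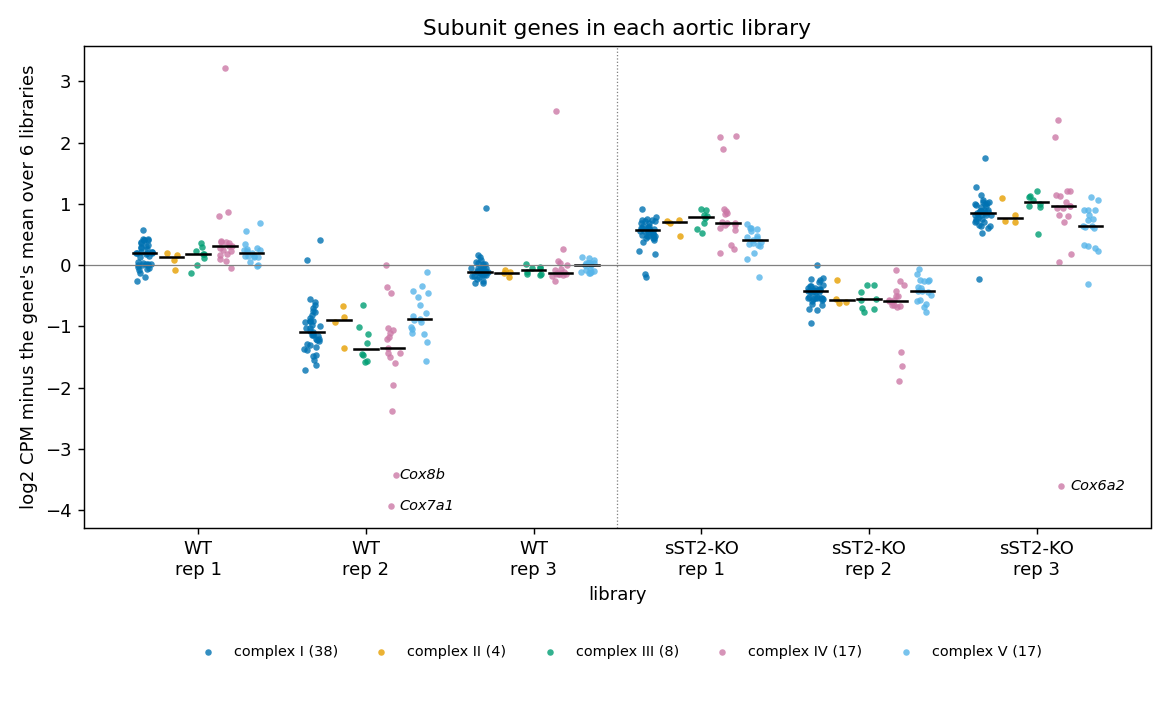
Level of each of the 84 tested subunit genes in each library, as log2 CPM minus the mean of that gene over the 6 libraries (vertical axis, log2), by complex (colours), with bars at the medians. The medians over all members were 0.19, -1.09 and -0.10 for the WT mice and 0.59, -0.50 and 0.87 for the sST2-KO mice, so sST2-KO replicate 2 sat below WT replicates 1 and 3.

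What the members shared was their order across the 6 libraries. In 67 of 84 (79.8%) the level fell in the sequence sST2-KO replicate 3, sST2-KO replicate 1, WT replicate 1, WT replicate 3, sST2-KO replicate 2, WT replicate 2, a sequence that 2.14% of all genes tested followed. It was noted after the values were seen and is a description. sST2-KO replicates 1 and 3 both exceeded each WT library for 75 members (89.3%, against 18.7% of all genes tested), and sST2-KO replicate 2 lay below WT replicates 1 and 3 for 82. WT replicate 2 was the lowest library for 77 members. The ratio of the highest to the lowest library had a median of 3.87 over the members for which it could be formed.

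Most members varied closely together. After the library median was taken out, the standard deviation left for a gene over the 6 libraries had a median of 0.17 on the log2 scale, against 0.73 before. It was under 0.25 for 51 members and smallest for Cox8a (0.0555), the general form of a small complex IV subunit. It exceeded 0.5 for 9 members, named here after their values were seen. These were Cox6a2 (2.86), Cox7a1 (1.67), Cox8b (1.54), Ndufa4l2 (0.866), Atp5g1 (0.815), Ndufa12 (0.752), Ndufb2 (0.655), Cox6b2 (0.632) and Cox7a2l (0.525). The first 3 are forms known from striated muscle, and Cox7a1 and Cox8b also from brown fat.

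**Figure D2:**
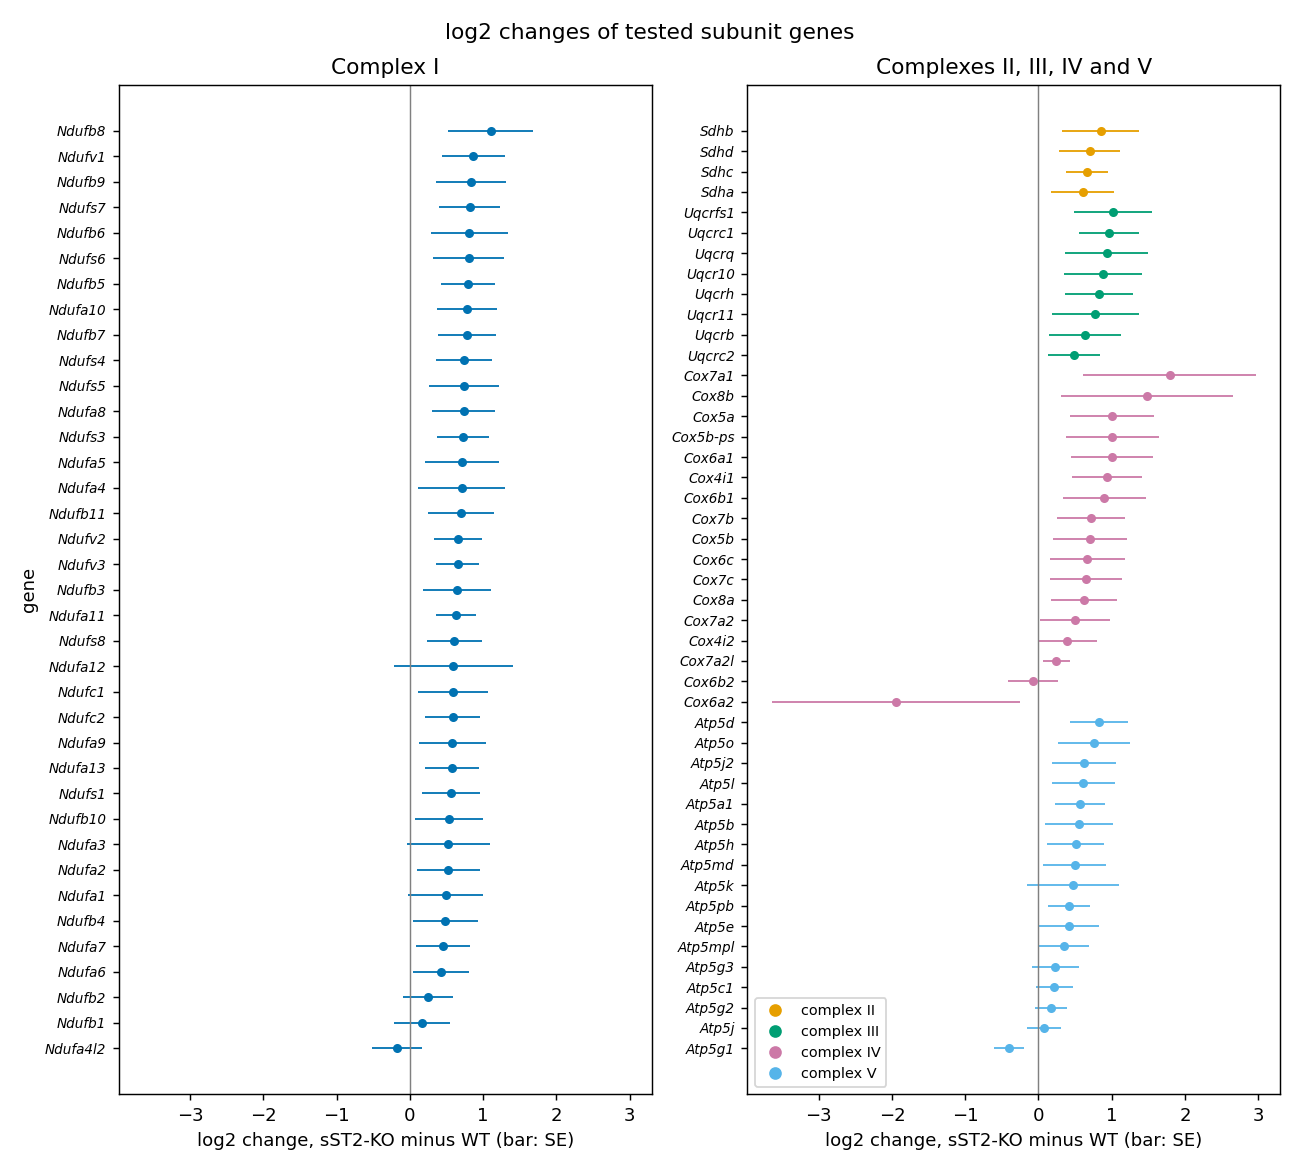
Log2 changes of tested subunit genes, sST2-KO minus WT (horizontal axis, log2), with bars of 1 standard error from edgeR, in panels for complex I and for complexes II to V. Most points lie between 0 and 1.10, Cox7a1 (1.79) and Cox8b (1.49) lie farthest right, and Cox6a2 (-1.94) lies farthest left.

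In complex I, 37 of 38 tested members had a log2 change above 0 and the median was 0.65. Ndufa11, an accessory subunit of the membrane arm, was measured at 39.3, 23.9 and 32.6 CPM in WT and 44.0, 38.9 and 65.4 CPM in sST2-KO. The lowest sST2-KO library lay below the highest WT library by less than 1 CPM, so the groups met at 1 pair of libraries. Its log2 change was 0.63 (SE 0.27), with an edgeR adjusted p of 0.46. Ndufv3, a small accessory subunit of the NADH-oxidising module, stood at 76.3, 46.0 and 70.2 CPM in WT and 122, 66.9 and 113 CPM in sST2-KO. sST2-KO replicate 2 lay below WT replicates 1 and 3, and the log2 change was 0.65 (SE 0.29). Ndufb5, an accessory subunit of the membrane arm, stood at 54.3, 37.0 and 57.5 CPM in WT and 87.3, 45.9 and 125 CPM in sST2-KO, with sST2-KO replicate 2 again among the WT libraries and a log2 change of 0.79 (SE 0.37). Ndufa2 had the highest mean level of complex I per length (from 61.6 to 221 CPM per kilobase), with a log2 change of 0.52 (SE 0.43).

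Ndufs1, Ndufv1 and Ndufv2 are core subunits of the module of complex I that oxidises NADH, and were grouped by role after the values were seen. Their log2 changes ran from 0.56 (Ndufs1) to 0.86 (Ndufv1). Ndufv1, which binds the NADH and the flavin, stood at 124, 56.2 and 115 CPM in WT and 205, 93.0 and 239 CPM in sST2-KO. It was highest in sST2-KO replicates 1 and 3, and sST2-KO replicate 2 lay among the WT libraries. The largest log2 change of complex I was that of Ndufb8 at 1.10 (SE 0.58), an accessory subunit named after its value was seen. Ndufa12, also named after the fact, followed another order, at 20.2, 7.89 and 42.2 CPM in WT and 19.9, 11.5 and 74.8 CPM in sST2-KO: replicate 3 was high in both groups. Ndufb2 differed less between libraries, from 7.69 to 15.8 CPM.

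Ndufa4 is grouped with complex I by its name, although its protein is now counted with complex IV. It was measured at 192, 49.7 and 149 CPM in WT and 251, 88.7 and 298 CPM in sST2-KO, and followed the common order, with a log2 change of 0.71 (SE 0.59). Its paralogue Ndufa4l2, known as a gene induced under low oxygen, was measured at 10.8, 17.3 and 14.6 CPM in WT and 18.1, 8.61 and 11.0 CPM in sST2-KO. It was the complex I member with a change below 0 (log2 change -0.18, SE 0.34, edgeR adjusted p of 0.841), and the ranges of both groups overlapped. The log2 change of Ndufa4l2 was 0.040 without sST2-KO replicate 2 and 0.048 without WT replicate 2 and sST2-KO replicate 3, so its sign was not stable.

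Complex II, succinate dehydrogenase, also belongs to the tricarboxylic acid cycle. All 4 genes had a log2 change above 0, with a median of 0.68, and all 4 followed the common library order. Sdha, the flavoprotein that oxidises succinate, stood at 348, 171 and 281 CPM in WT and 508, 199.996 and 508 CPM in sST2-KO (log2 change 0.61, SE 0.43). Sdhb, the iron-sulphur subunit, stood at 143, 48.7 and 118 CPM in WT and 208, 82.6 and 268 CPM in sST2-KO (log2 change 0.85, SE 0.52). In both, sST2-KO replicates 1 and 3 lay above all WT libraries and sST2-KO replicate 2 lay between WT replicate 2 and WT replicate 3. Sdhc, a membrane anchor, stood at 119, 79.0 and 110.3 CPM in WT and 176, 106 and 206 CPM in sST2-KO, with a log2 change of 0.66 (SE 0.29) and an edgeR adjusted p of 0.462. Sdhd, the other anchor, stood at 125, 62.0 and 108 CPM in WT and 191, 80.1 and 208 CPM in sST2-KO, with a log2 change of 0.70 (SE 0.41).

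Complex III had the highest median of the 5 complexes at 0.85, and all 8 members lay above 0. Differences between complexes were not tested. Uqcrc1, a core protein of the matrix arm (mm39, chr9:108765701-108778691, plus strand), was the 1 member with an unadjusted edgeR p under 0.05. Its edgeR adjusted p was 0.453. Its level was 135, 67.7 and 133 CPM in WT and 249.8, 117 and 286 CPM in sST2-KO, that is, 112 ± 38.1 CPM in WT (SD, n = 3) and 217 ± 88.9 CPM in sST2-KO (SD, n = 3). sST2-KO replicate 2 lay below WT replicates 1 and 3, so the groups overlapped, and the log2 change was 0.96 (SE 0.41). Its NRF1 letters are those in capitals in the window printed above.

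Uqcrfs1, the Rieske iron-sulphur protein that takes electrons from ubiquinol, stood at 114, 41.4 and 112 CPM in WT and 202, 77.0 and 263 CPM in sST2-KO. Its log2 change of 1.02 (SE 0.54) was the largest of complex III, with the same overlap. Uqcrh, the hinge protein, stood at 159, 58.1 and 125 CPM in WT and 202, 112 and 293 CPM in sST2-KO (log2 change 0.83, SE 0.46). Uqcr10 and Uqcr11, small membrane subunits, had the highest levels of this complex per length. Uqcr10 stood at 105, 28.8 and 76.9 CPM in WT and 158, 62.8 and 166 CPM in sST2-KO, with a log2 change of 0.88 (SE 0.53), and Uqcr11 had a log2 change of 0.78 (SE 0.59). The smallest change of this complex was that of Uqcrc2 at 0.49 (SE 0.36), named after its value was seen.

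Complex IV had both the highest and the lowest log2 change of all members. Its median was 0.71, and 15 of 17 tested members lay above 0. Cox6a1, a general subunit, had the highest mean level per length of all members, from 101 to 666 CPM per kilobase, and stood at 228, 70.9 and 181 CPM in WT and 357, 135 and 467 CPM in sST2-KO. Cox4i1, the general form of the largest nuclear subunit, stood at 333, 115 and 283 CPM in WT and 503, 261 and 637 CPM in sST2-KO. Cox5a, the partner of Cox4 in assembly, stood at 75.7, 20.9 and 56.5 CPM in WT and 118, 42.8 and 147 CPM in sST2-KO. These 3 genes had log2 changes of 1.0 (SE 0.56), 0.94 (SE 0.48) and 1.01 (SE 0.57), and in each sST2-KO replicate 2 lay below WT replicates 1 and 3. Cox6b1 and Cox7b followed the same order with log2 changes of 0.90 (SE 0.57) and 0.72 (SE 0.46). Cox6b2, the form known from testis, stood from 4.50 to 8.49 CPM with a log2 change of -0.077 (SE 0.34).

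Cox7a2l, which joins complexes III and IV into supercomplexes, differed less between libraries than most members. It stood at 138, 111 and 146 CPM in WT and 170.2, 135 and 161 CPM in sST2-KO, a log2 change of 0.24 (SE 0.19). Cox5b-ps is carried as protein-coding in the table although its symbol is that of a pseudogene, and it was named after its value was seen (log2 change 1.01, SE 0.63). Many subunit genes have processed pseudogenes or close copies, and how reads were shared between near-identical copies was not given in the sources used here, so the values of such genes are uncertain to that extent.

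Cox7a1 (mm39, chr7:29883569-29885503, plus strand) is the form of subunit 7a known from heart, skeletal muscle and brown fat. It stood at 22, 0.718 and 13.2 CPM in WT and 54.9, 4.65 and 65.7 CPM in sST2-KO, a span of 91.6-fold between WT replicate 2 and sST2-KO replicate 3. Its log2 change was the highest of all members at 1.79 (SE 1.18), with an edgeR adjusted p of 0.561. Cox8b (mm39, chr7:140478858-140480359, minus strand), the form of subunit 8 known from the same tissues, stood at 55.8, 2.71 and 36.6 CPM in WT and 129, 8.07 and 129.7 CPM in sST2-KO, a span of 47.9-fold. Its log2 change was 1.49 (SE 1.17), with an edgeR adjusted p of 0.611. Both genes were high in sST2-KO replicates 1 and 3, intermediate in WT replicates 1 and 3, and low in replicate 2 of both groups. The general forms Cox7a2, at 104, 35.5 and 80.0 CPM in WT and 118, 52.4 and 140.2 CPM in sST2-KO, and Cox8a, at 210.5, 86.4 and 171 CPM in WT and 284, 122 and 315 CPM in sST2-KO, ranked the libraries in the same way over a narrower span (3.95-fold and 3.65-fold).

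Cox6a2 (mm39, chr7:127804607-127805559, minus strand) is the heart and skeletal muscle form of subunit 6a. It had 245, 2 and 138 counts in WT and 94, 7 and 0 counts in sST2-KO. Its level was thus high in WT replicates 1 and 3. It was at 0 counts in sST2-KO replicate 3, the highest library for most members, which allows up to 0.192 CPM there. The log2 change was -1.94 (SE 1.70), with an edgeR adjusted p of 0.646. Cox4i2, a form of subunit 4 known from lung and from cells that sense oxygen, was low, at 3.69, 2.55 and 3.28 CPM in WT and 4.09, 2.62 and 5.85 CPM in sST2-KO, with a log2 change of 0.39 (SE 0.40).

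**Figure D3:**
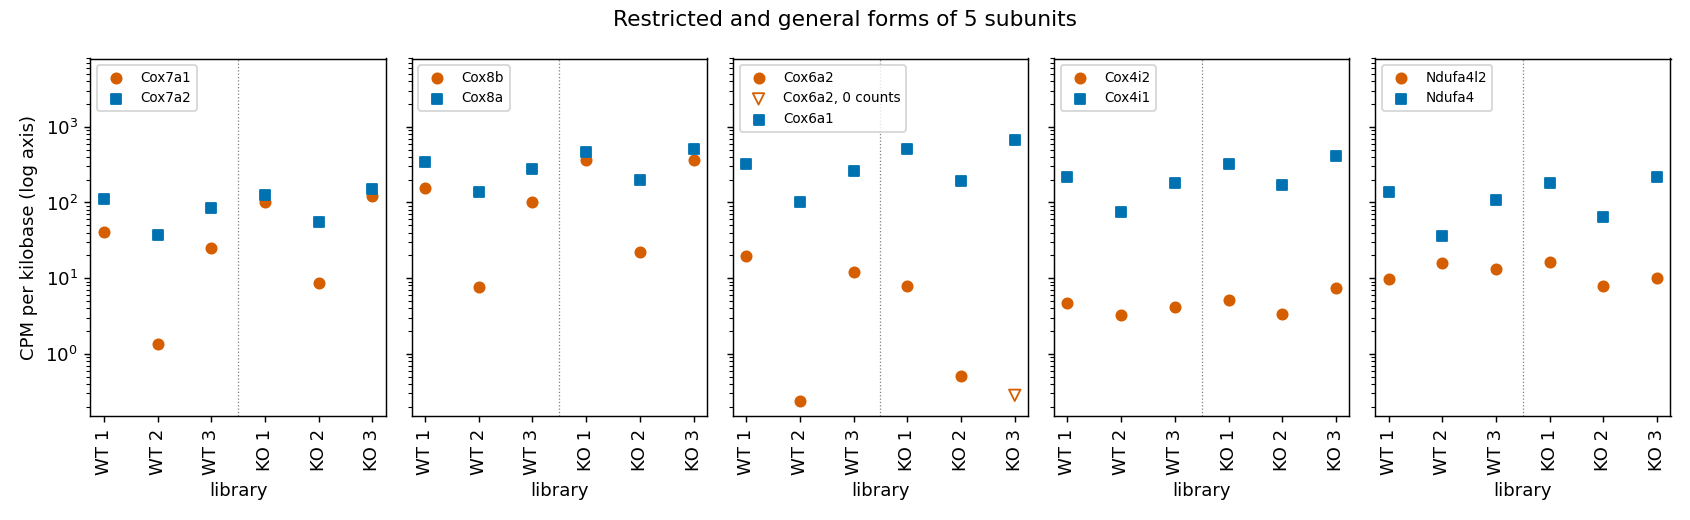
Level of the restricted form (circles) and the general form (squares) of 5 subunits in each library, in CPM per kilobase of gene length on a log axis. The open triangle marks 0 counts of Cox6a2, drawn at the level of 3 counts per unscaled library total. Cox7a1 comes close to Cox7a2 in sST2-KO replicates 1 and 3, where the ratios were 0.820 and 0.828, and Cox6a2 has 0 counts in sST2-KO replicate 3.

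Ratios within a library do not depend on how libraries are scaled, so the forms were compared per kilobase as log2 ratios with 0.5 counts added. The test was an exact two-sided permutation test whose smallest p is 0.10 with 3 libraries against 3. The linear ratio of Cox7a1 to Cox7a2 was 0.373, 0.0376 and 0.293 for the WT mice and 0.820, 0.157 and 0.828 for the sST2-KO mice. In the sST2-KO replicates 1 and 3 the restricted form thus neared the general form. The log2 difference between groups was 1.57 (exact permutation p = 0.3, n = 3 per group), and it ran from 0.52 without WT replicate 2 to 2.36 without sST2-KO replicate 2. The ratio of Cox8b to Cox8a was 0.456, 0.0547 and 0.368 for the WT mice and 0.784, 0.114 and 0.707 for the sST2-KO mice, with a log2 difference of 0.93 (exact permutation p = 0.5) that was -0.039 without WT replicate 2 and ran up to 1.83 with 1 library left out. Replicate 2 of each group had the lowest ratio for both pairs.

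The ratio of Cox6a2 to Cox6a1 went the other way, with a log2 difference of -3.78 (exact permutation p = 0.2) that rests in part on the added 0.5 counts and was -1.61 without sST2-KO replicate 3. The log2 ratio of Cox4i2 to Cox4i1 was -5.51, -4.49 and -5.44 for the WT mice and -5.96, -5.64 and -5.78 for the sST2-KO mice. All 3 sST2-KO values lay below all 3 WT values, a log2 difference of -0.65 at the smallest p the design allows (exact permutation p = 0.1). WT replicate 2 lay farthest from the rest, and without it the difference was -0.32. The ratio of Ndufa4l2 to Ndufa4 had a log2 difference of -0.96 (exact permutation p = 0.4). Adjusted over these 5 ratios, each p was 0.5.

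Complex V, the ATP synthase, had the lowest median of the 5 complexes at 0.47, with 16 of 17 tested members above 0. Atp5b, the catalytic beta subunit, stood at 876, 382 and 783 CPM in WT and 1224, 493 and 1275 CPM in sST2-KO, and its log2 change was 0.55 (SE 0.47). Atp5a1, the alpha subunit, stood at 584, 327 and 523 CPM in WT and 769, 475 and 877 CPM in sST2-KO, and its log2 change was 0.56 (SE 0.34). For both, sST2-KO replicate 2 lay below WT replicates 1 and 3. Atp5d, the delta subunit of the central stalk, stood at 156, 70.7 and 142 CPM in WT and 235, 129 and 287 CPM in sST2-KO, with a log2 change of 0.82 (SE 0.39), the highest of complex V, and an edgeR adjusted p of 0.481.

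The 3 genes for subunit c, whose identical mature proteins form the rotating ring, had log2 changes below the median of the members. Atp5g1 (mm39, chr11:95959678-95966496, minus strand) stood at 53.6, 33.8 and 39.7 CPM in WT and 32.1, 35.0 and 29.3 CPM in sST2-KO. Here sST2-KO replicates 1 and 3 were the lowest of all 6 libraries, and sST2-KO replicate 2 lay just above WT replicate 2. The log2 change was -0.40 (SE 0.21), with an edgeR adjusted p of 0.497. Atp5g2 stood at 76.8, 48.6 and 74.0 CPM in WT and 79.7, 63.0 and 82.1 CPM in sST2-KO, with a log2 change of 0.17 (SE 0.22). Atp5g3, the most abundant of the 3 in CPM, stood at 171, 79.5 and 155 CPM in WT and 179, 119 and 177 CPM in sST2-KO, with a log2 change of 0.23 (SE 0.32). Without WT replicate 2 these 2 changes were -0.027 and -0.059, and that of Atp5g1 was -0.56. Atpif1, the inhibitor of the ATP synthase and no member by the rule, stood at 16.7, 11.2 and 22.5 CPM in WT and 12.5, 19.2 and 18.6 CPM in sST2-KO.

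**Figure D4:**
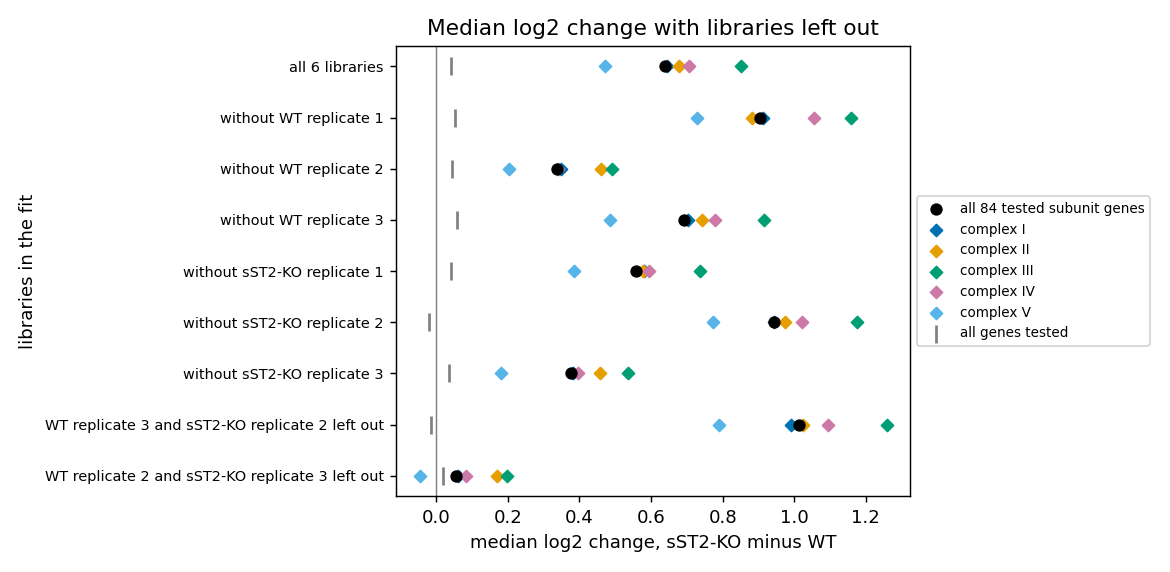
Median log2 change of the 84 tested subunit genes (black), of each complex (coloured diamonds) and of all genes tested (grey ticks), sST2-KO minus WT on the horizontal axis, with all 6 libraries and with libraries left out. The black point runs from 0.056 with WT replicate 2 and sST2-KO replicate 3 left out to 1.01 with WT replicate 3 and sST2-KO replicate 2 left out.

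The size of the shared difference rested on single libraries. The median of the members was 0.64 with all libraries, 0.34 if WT replicate 2 was left out, 0.38 if sST2-KO replicate 3 was, and 0.94 without sST2-KO replicate 2. Without WT replicate 1 it was 0.90, without WT replicate 3 it was 0.69, and without sST2-KO replicate 1 it was 0.56. When both WT replicate 2 and sST2-KO replicate 3 were left out it was 0.056, and 57 of 84 members lay above 0, against 52.0% of all genes. With both libraries that held hepatocyte or airway markers left out it was 1.01, and 81 of 84 lay above 0, against 48.9% of all genes. The edgeR count of members called was 0 in each of these fits. At an unadjusted edgeR p under 0.05, 46 members were higher without sST2-KO replicate 2, against 6.38% of all genes in that fit. With WT replicate 3 left out too the number was 28, against 4.1% of all genes, and with all libraries it was 1.

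The subunits encoded by mitochondrial DNA had log2 changes below 0, but none passed the test. Of 13 genes, 0 lay above 0 and the median log2 change was -0.68, with 0 called by edgeR and 0 by DESeq2. mt-Co1, the catalytic subunit of complex IV, stood at 74009, 209555 and 77985 CPM in WT and 93407, 25228 and 82729 CPM in sST2-KO. Its level was highest in WT replicate 2 and lowest in sST2-KO replicate 2, the libraries that had the lowest nuclear subunit levels of their groups. The median deviations of the 13 genes from their means were -0.26, 1.41 and -0.016 for the WT mice and 0.40, -1.64 and 0.27 for the sST2-KO mice. The direction below 0 rested on replicate 2 of both groups: in the other libraries sST2-KO replicates 1 and 3 (0.40 and 0.27) lay above WT replicates 1 and 3 (-0.26 and -0.016).

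Within a library, the summed counts of the nuclear subunits were set against those of the 13 mitochondrial ones. This ratio was 0.0604, 0.00937 and 0.0463 for the WT mice and 0.0572, 0.106 and 0.0772 for the sST2-KO mice. The log2 difference between groups was 1.38 (exact permutation p = 0.2, n = 3 per group), and WT replicate 1 exceeded sST2-KO replicate 1. For complex III the log2 difference was 1.44 and for complex IV 1.65, each without overlap at the smallest p the design allows (exact permutation p = 0.1). The nearest pair was WT replicate 1 and sST2-KO replicate 1 in both, at 0.0346 and 0.0359 in complex III and at 0.0264 and 0.0285 in complex IV. Without WT replicate 2 these log2 differences were 0.60 and 0.73. For complexes I and V the log2 differences were 1.28 and 1.71 (exact permutation p = 0.2 and 0.3). Adjusted over the 5 ratios, the p values were 0.25, and 0.3 for complex V. Without WT replicate 2 the log2 differences were 0.55 over all complexes, 0.43 for complex I and 0.87 for complex V.

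Genes that work beside the complexes had the same sign. All 6 tested electron carriers and the acyl carrier lay above 0, with a median of 0.97, and all 6 followed the common library order. Cyc1, the cytochrome c1 of complex III that the naming rule leaves out, stood at 131, 41.9 and 113 CPM in WT and 224, 87.5 and 261 CPM in sST2-KO (log2 change 1.0, SE 0.53). Ndufab1, the acyl carrier of complex I, had a log2 change of 0.86 (SE 0.43). In the tricarboxylic acid cycle 16 of 17 lay above 0, with a median of 0.68. Idh2, the NADP-dependent isocitrate dehydrogenase, stood at 96.4, 61.4 and 96.2 CPM in WT and 116, 129 and 145 CPM in sST2-KO. It was the 1 gene of these 17 whose sST2-KO libraries lay wholly above WT, against 9.09% of all genes. EdgeR called 0 genes of these lists, against 0.0% of all genes.

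Genes of assembly and upkeep included some whose groups did not overlap. Of 48 tested assembly factors 44 lay above 0 (median 0.33), and for 7 the sST2-KO libraries lay wholly above WT, against 9.09% of all genes. Surf1, an assembly factor of complex IV, stood at 32.1, 29.1 and 31.7 CPM in WT and 46.9, 39.1 and 55 CPM in sST2-KO, with a log2 change of 0.60 (SE 0.17) and an edgeR adjusted p of 0.416. Cox10, which farnesylates the haem of complex IV, stood at 9.54, 5.74 and 9.36 CPM in WT and 19.5, 12.1 and 18 CPM in sST2-KO, with a log2 change of 1.01 (SE 0.31) and an edgeR adjusted p of 0.426. In both, sST2-KO replicate 2 stood above all WT libraries, whereas it lay below WT replicates 1 and 3 for all 17 tested subunits of complex IV. The median deviations of all 48 tested assembly factors went the subunits' way. There sST2-KO replicate 2 (-0.18) lay below WT replicates 1 and 3 (0.086 and -0.066). In coenzyme Q synthesis 12 of 13 lay above 0 (median 0.58), and 5 were wholly above WT, against the same 9.09%. Coq2 stood at 47.8, 32.4 and 42.7 CPM in WT and 54.8, 66.4 and 60.1 CPM in sST2-KO.

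General markers of mitochondrial mass had smaller log2 changes. All 17 had a log2 change above 0, with a median of 0.31, and for 6 the sST2-KO libraries lay wholly above WT, against 9.09% of all genes. Tomm40, the import channel of the outer membrane, stood at 23.4, 11.4 and 27.4 CPM in WT and 46.6, 34.4 and 46.7 CPM in sST2-KO, and Slc25a5, an ADP/ATP carrier, at 199, 157 and 204 CPM in WT and 235, 239.5 and 253 CPM in sST2-KO. The 20 mitochondrial ribosome genes had a median of 0.45, and all lay above 0. Mrps12 stood at 6.89, 1.99 and 8.47 CPM in WT and 22.4, 15.5 and 23.4 CPM in sST2-KO. DESeq2 called it higher (adjusted p = 0.0317), and edgeR did not (adjusted p = 0.413).

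Of 14 tested regulators of mitochondrial biogenesis 9 lay above 0, with a median of 0.17. Ppargc1a, the coactivator PGC-1alpha that drives transcription of respiratory genes, stood at 5.02, 2.71 and 3.88 CPM in WT and 7.61, 11.8 and 56.3 CPM in sST2-KO. The sST2-KO libraries lay wholly above WT and replicate 3 far above the rest, with a log2 change of 2.70 (SE 0.78). In this list 2 of 14 tested genes lay wholly above WT, against 9.09% of all genes. DESeq2 called it higher (adjusted p = 0.0139), and edgeR did not (adjusted p = 0.417). Without sST2-KO replicate 3 its log2 change was 1.32. Esrra, the nuclear receptor that works with it, stood at 48.4, 17.8 and 44.2 CPM in WT and 72.7, 36.7 and 79.0 CPM in sST2-KO, in the common order of the subunits. Nrf1, Gabpa and Yy1, named for the motifs searched, had log2 changes of 0.063, -0.31 and -0.038.

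By their medians, markers of brown fat ranked the libraries as the subunits did, but most single markers did not. All 12 brown adipocyte markers had a log2 change above 0 (median 1.58), and the list summed to values from 223 to 414 CPM in WT and from 255 to 2859 CPM in sST2-KO. Their median deviations were 0.091, -2.45 and -0.40 for the WT mice and 1.05, -0.99 and 2.44 for the sST2-KO mice. These medians rank the 6 libraries as the subunits do. So did the medians of the electron carriers, tricarboxylic acid cycle, assembly factors, mitochondrial mass markers and mitochondrial ribosome genes. Gene by gene, 4 of 12 followed that order, against 67 of 84 subunits and 2.14% of all genes tested. Ucp1, the uncoupling protein that defines brown and beige adipocytes, stood at 44.7, 2.87 and 32.3 CPM in WT and 591, 35.0 and 1433 CPM in sST2-KO, with a log2 change of 4.68 (SE 1.46) and an edgeR adjusted p of 0.428. Elovl3 and Slc27a2 were at 0 in WT replicate 2 and Cpt1b in sST2-KO replicate 2. Ppargc1a is in this list too.

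General adipocyte markers, 9 of 10 above 0 (median 0.46), summed to values from 2746 to 8132 CPM in WT and from 2087 to 14163 CPM in sST2-KO, and none was at 0. They were lowest in replicate 2 of both groups, at deviations of -1.38 in WT and -1.58 in sST2-KO. Of the 10 genes, 0 followed the common library order of the subunits. The part of fat in the difference of the subunits was not tested. In bulk tissue, more or fewer cells of a type and more or less RNA per cell cannot be told apart.

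**Figure D5:**
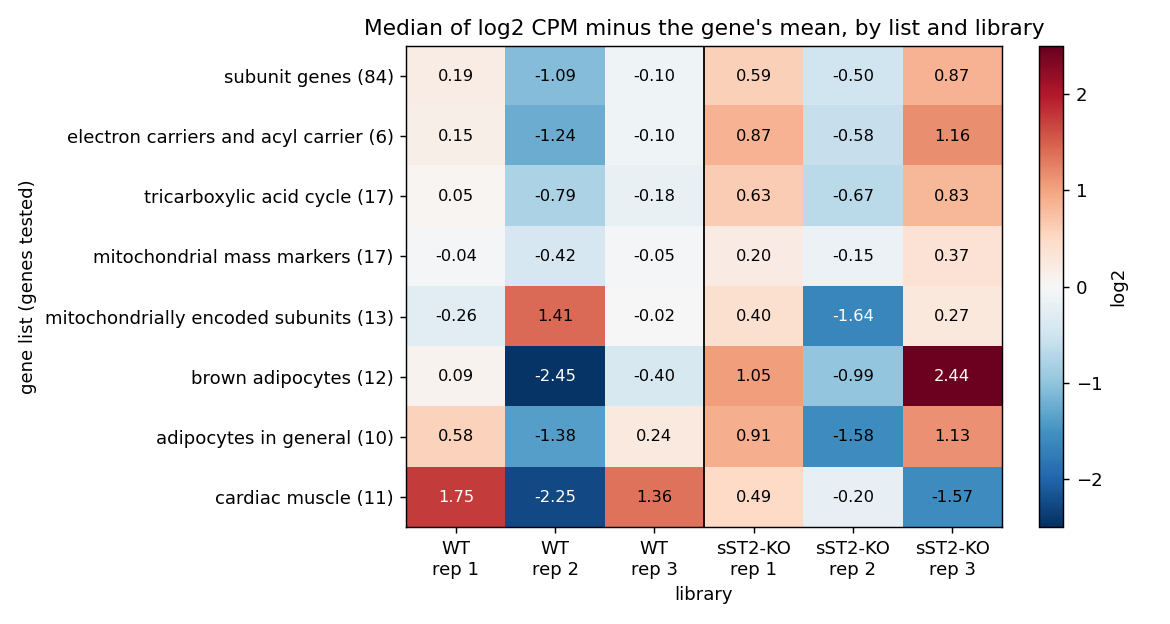
Median deviation of log2 CPM from each gene's mean over 6 libraries (colour and number in each cell, log2), for 8 gene lists (rows, tested genes in brackets) in the 6 libraries (columns). The rows of the subunits, electron carriers, tricarboxylic acid cycle, mitochondrial mass markers and brown adipocytes are lowest in WT replicate 2. These rows are all highest in sST2-KO replicate 3. The row of mitochondrially encoded subunits has its highest value in WT replicate 2.

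Cardiac muscle markers followed Cox6a2 in part. Of 11 tested, 3 lay above 0 (median -1.06). The 12 genes summed to 568, 48.7 and 413 CPM in WT and 258, 335 and 85.4 CPM in sST2-KO. The sum was thus higher in sST2-KO replicate 2 than in sST2-KO replicate 1, whereas Cox6a2 had 7 counts in replicate 2 and 94 in replicate 1. Myl7, the atrial myosin light chain, stood at 53.0, 1.83 and 31.7 CPM in WT and 18.1, 2.28 and 1.13 CPM in sST2-KO, high in WT replicates 1 and 3 as Cox6a2 was. Nppa was at 0 in WT replicate 2 and sST2-KO replicate 3, Myh7 in WT replicate 2, and Myl2 in all 3 sST2-KO libraries. Skeletal muscle markers summed to at most 32.7 CPM in any library, and Tnnc2 was at 0 in all 6. The part of striated muscle in the values of Cox6a2, Cox7a1 and Cox8b was not tested.

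Markers of the aortic wall did not follow the full library order of the subunits, although endothelial markers shared a part of it. Smooth muscle markers had a median log2 change of 0.33 (7 of 8 above 0), with deviations of -0.79, 0.54 and -0.34 for the WT mice and -0.15, 0.032 and 0.63 for the sST2-KO mice. WT replicate 2, lowest for the subunits, was among the highest for smooth muscle. Endothelial markers had a median of 0.33 (8 of 8 above 0). Their deviations were 0.0066, -0.19 and -0.16 for the WT mice and 0.80, -0.82 and 0.33 for the sST2-KO mice. For 6 of the 8, sST2-KO replicates 1 and 3 both exceeded each WT library. This held for 75 of 84 subunits, 9 of 12 brown adipocyte markers and 18.7% of all genes tested. Adventitial fibroblast markers had a median of -0.58 and macrophage markers of -0.90, each with 1 of 8 above 0. For 5 genes of each of these last lists the sST2-KO libraries lay wholly below WT, against 10% of all genes. DESeq2 called 4 macrophage and 1 fibroblast gene lower, against 1.47% of all genes, and edgeR called 0. Erythroid markers had a median of -2.78 (0 of 7 above 0).

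Of all counts, the 88 genes together took 1.09, 0.347 and 0.876% of the WT libraries' total and 1.33, 0.731 and 1.54% of the sST2-KO libraries' total. With counts of the mitochondrial chromosome left out of the total, the share was 1.33, 0.558 and 1.09% of the WT libraries' total and 1.74, 0.786 and 1.94% of the sST2-KO libraries' total. On either total, sST2-KO replicates 1 and 3 held the largest shares, sST2-KO replicate 2 lay below WT replicates 1 and 3, and WT replicate 2 held the smallest.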

How the data were processed

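Bulk RNA-seq of aorta was analysed for 3 WT and 3 sST2-KO libraries, grouped by the titles in the labels. Raw counts for each Ensembl gene were deposited in 1 table, with gene positions and lengths. The submitters' processing notes give the build as mm39. Libraries were made from poly-A RNA with random priming, per the labels' protocols. The aligner, the counting program and its strand setting were not given in the sources used here. Without a stated strand setting, reads of overlapping or antisense genes cannot be told apart.

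From the counts, edgeR 4.0.16 (R 4.3.3) kept genes by filterByExpr (minimum count 10, minimum total 15), scaled libraries by TMM, fitted the quasi-likelihood model to 16377 genes with group as the only term and adjusted p-values over all of them at 0.05. Standard errors of log2 changes come from the same fit, and levels per length are CPM divided by gene length in kilobases. DESeq2 1.42.0 and limma 3.58.1 (voom) were alternatives. The edgeR fit alone was tested on simulated data. Ratios within a library were compared by an exact two-sided permutation test. RefSeq promoter windows of GRCm38.p6, matched by symbol, were used for 68 subunit genes, and no coordinate was carried between builds.

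Members and gene lists were chosen with earlier results of these data known. Genes named were any past the threshold, and in each complex the 3 with the lowest p, the 2 with the highest level per length and those with a change below 0, with the isoform pairs and subunit c genes. From each other list, up to 2 genes with the lowest p and up to 2 with the highest level were named. Genes named for their part in a marker list (those at 0), as targets of the motifs or by role were chosen after their values were seen. Of 256 list entries 253 were found. Libraries held 15615658 to 17988552 counts, and intervals and limits cover counting error only. Whether RNA of 1 mouse or of several went into a library is not stated beyond 3 per group, so p-values measure the spread between these samples. Single values of some genes are not reported here, although counts and medians include them.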

Additional observations from a re-analysis of the deposited data

How the results depend on the processing

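The count of members called stayed at 0 in each direction under each alternative run: RLE and upper-quartile scaling, mitochondrially encoded genes left out, DESeq2, limma-voom with and without quality weights, no filter and a higher filter, protein-coding genes alone, a threshold of 0.1, and libraries left out. The median log2 change of the members ran from 0.60 to 0.64 over the scalings, filters and tools, from 0.34 to 0.94 with 1 library left out, and was 0.056 with WT replicate 2 and sST2-KO replicate 3 left out, where the median of complex V was -0.046. The tools differed more at an unadjusted p under 0.05. By limma-voom with quality weights 39 members were higher there, against 9.86% of all genes. By DESeq2 6 were (5.62% of all genes), and by limma-voom without weights 0 were (3.67%). For 34 named members 612 values were computed, of which 597 kept their direction and 15 reversed, in 8 genes. With WT replicate 2 and sST2-KO replicate 3 left out, the log2 changes were -0.10 for Atp5g2, -0.15 for Atp5g3, -0.081 for Cox4i2, -0.14 for Cox7a2, -0.12 for Ndufa2, -0.028 for Ndufa4 and 0.048 for Ndufa4l2, and the log2 differences of the ratios were -0.45 for Cox8b to Cox8a and 0.17 for Ndufa4l2 to Ndufa4. With 1 library left out, the log2 difference of Cox8b to Cox8a ran from -0.039 to 1.83, and the log2 changes ran from -0.027 to 0.30 for Atp5g2, from -0.059 to 0.44 for Atp5g3, from -0.28 to 0.13 for Cox6b2 and from -0.53 to 0.040 for Ndufa4l2. With quality weights Cox6b2 was at 0.23 and Ndufa4l2 at 0.073, and with WT replicate 3 and sST2-KO replicate 2 left out Ndufa4l2 was at 0.055. The cause of these reversals was not tested.

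WT and sST2-KO libraries share replicate numbers. Their deviations from the group means correlated at 0.145, 0.046 and -0.087 for numbers 1, 2 and 3 over 16377 genes. Not every library correlated best with its own number. The main fit did not use the numbers as pairs, but with 3 libraries per group this check cannot settle whether they pair the samples. With the replicate number as a block the median was 0.63 and the count called stayed at 0. In that fit 58 members were higher at an unadjusted edgeR p under 0.05, against 5.77% of all genes. Without the block 1 member was. Depth limits Cox6a2 most, with 7 counts or fewer in 3 libraries.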
